A study of Mus musculus with 86 samples.

Results

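Mitochondrial ribosomal proteins build the ribosome that works inside mitochondria, which makes the small set of respiratory chain proteins encoded by mitochondrial DNA. Their genes are nuclear, so their RNAs are translated in the cytosol and the proteins are then imported, and neurons are known to carry RNAs for mitochondrial proteins into axons. Some members descend from bacterial ribosomal proteins, and others are found in mitochondria alone. The members described here are the protein-coding mouse genes whose symbol is Mrpl (large subunit) or Mrps (small subunit) followed by a number. Members were grouped by symbol, so Mrps30 and Mrps18a, which sit in the large subunit in structures, count as Mrps. This rule found 78 of the 53664 genes to which the transcripts were summed, 49 with an Mrpl symbol and 29 with an Mrps symbol. Of these, 47 have a bacterial counterpart, 29 are specific to mitochondria and 2 were put in neither class.

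The study asks how TDP-43, an RNA-binding protein encoded by Tardbp and linked to ALS, affects which RNAs accumulate in neurites. Neurites were separated from soma by growth on porous membranes without serum, and polyA RNA of the soma and of the neurite fraction was sequenced. The lines were CAD, which came from a mouse brain tumour, and N2A, a mouse neuroblastoma line. The measure of accumulation is the localization ratio (LR), the log2 of a gene's level in neurites over that in soma.

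In the knockout experiments, CAD and N2A cells carried the genotype TetOff TDP-43: the endogenous alleles had been cut by CRISPR, and a single HA-tagged TDP-43 transgene under a promoter that doxycycline turns off was the source of the protein. Cells labelled minus dox are called wild-type here, and cells labelled plus dox, which had 2 µg/mL doxycycline for 48 h per the labels (the study's methods give 1 µg/mL), are called knockout. The lines grew from single cells, so each is a clone. In the third experiment, CAD cells with intact endogenous alleles expressed a single-copy transgene of WT TDP-43 or of Q331K TDP-43, an ALS mutant, from a promoter that doxycycline turns on, and both groups had doxycycline for about a week per the methods. The endogenous alleles go down there, since TDP-43 lowers its own RNA. Knockout cells had doxycycline and wild-type cells did not, so loss of TDP-43 and exposure to doxycycline cannot be told apart in the first 2 experiments. As background, doxycycline belongs to the tetracyclines, which bind bacterial and mitochondrial ribosomes.

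Each of the 12 groups (CAD wild-type, CAD knockout, N2A wild-type, N2A knockout, CAD with the WT transgene and CAD with the Q331K transgene, each as soma and as neurites) held 3 libraries, 36 in all. The libraries held 25009904 to 32895542 estimated counts in the CAD knockout experiment, 22726534 to 31911030 in N2A and 9783050 to 15870647 in the transgene experiment. The labels do not say whether replicates come from separate cultures, and p-values measure the spread between libraries of 1 clone or line. All 78 members passed the filter on low counts in each experiment, among 17343 genes tested in CAD, 17912 in N2A and 13940 in the transgene experiment.

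Tardbp counts, scaled to library size as CPM with TMM factors, were checked against the labels. In CAD soma Tardbp stood at 515, 569 and 526 in wild-type and at 92.7, 90.4 and 98.3 CPM in knockout cells, and in N2A soma at 546, 601 and 590.1 and 160.0, 168 and 179 CPM. The groups did not overlap, with log2 differences of -2.52 and -1.78 in soma and -1.89 and -1.41 in neurites (CAD and N2A, edgeR). In the transgene experiment Tardbp ran from 705 to 875 CPM over all 12 libraries. Neuronal markers were present in every group, with 6 of 7 above 1 TPM. Of 4 catecholaminergic markers, 2 were above 1 TPM in wild-type soma of each line, led by Dbh at 15.3 TPM in CAD and 1.78 TPM in N2A. In CAD soma their sums were 12.7, 19.7 and 23.5 TPM in wild-type and 36.8, 46.0 and 55.4 TPM in knockout cells. In CAD neurites they were 3.59, 6.21 and 6.25 TPM and 13.6, 14.6 and 13.7 TPM. The groups overlapped in N2A, and the part of this rise in the CAD knockout results was not tested. Markers of astrocytes summed to 3.66 TPM or less, of oligodendrocytes to 12.3 TPM or less and of immune cells to 3.35 TPM or less in any library.

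Members were expressed at moderate levels, compared here per length. In CAD wild-type soma their mean TPM ran from 7.86 to 154.7 with a median of 37.8, against 3.81 to 118 with a median of 17.7 in neurites. In N2A wild-type soma the range was 6.14 to 108 with a median of 29.1, against 4.43 to 101 with a median of 23.7 in neurites. With the WT transgene in CAD it was 14.7 to 228 with a median of 50.2 in soma, against 10.2 to 325 with a median of 36.9 in neurites. The most abundant member in CAD wild-type soma was Mrpl30, a large-subunit protein of bacterial descent, at 116, 163 and 186 TPM in the 3 libraries, followed by Mrpl34, Mrps6, Mrps18b and Mrpl17 at group means of 133, 109.9, 96.0 and 95.6 TPM. Mrpl30 ranked first among members in all 12 groups. The lowest were Mrpl27, of the peptidyl transferase region, Mrpl23, of the exit tunnel, and Mrpl11, of the stalk that recruits translation factors, at means of 7.86, 8.31 and 11.0 TPM. Replicate 1 was the lowest of the 3 libraries for Mrpl30, with an SD of 35.8 TPM in its group. Together the members took 0.218% (SD 0.00882, n = 3) of all counts in CAD wild-type soma and 0.219% (SD 0.0192, n = 3) in neurites, and 0.174% (SD 0.00711, n = 3) and 0.291% (SD 0.00750, n = 3) in N2A.

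In wild-type cells the members were higher in neurites than in soma relative to the median gene. In CAD, 76 of 78 members were called higher in neurites (adjusted p under 0.01, edgeR) and 0 lower, against 23.7% of all genes tested called higher and 17.7% lower. Their median LR was 0.67 beside -0.02 for all genes, and all 78 values were above 0. In N2A, 77 were called higher and 0 lower, against 32.5% and 26.6% of all genes, with a median of 1.12 beside -0.03. With the WT transgene in CAD cells, 50 were called higher and 0 lower, against 14.9% and 12.6%, with a median of 0.44 beside -0.01. No member was called lower by edgeR in these 3 tests, and at an unadjusted p under 0.05 or by DESeq2 that count was also 0. In bulk RNA, fewer cells or neurites of a type and less RNA in each cannot be told apart.

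The sign of these ratios rests on the scale factors. Scaled to library totals alone, the median LR of all genes moved by -0.67 in CAD, -0.34 in N2A and -0.52 in the transgene experiment, and the members' median became -0.01 in CAD (7 called higher and 8 lower, against 3.84% and 57.3% of all genes), 0.78 in N2A (72 and 1, against 22.2% and 38.1%) and -0.08 in the transgene cells (7 and 6, against 3.81% and 50.4%). On the deposited TPM scale the mean sums were lower in neurites in all 3. The members' mean summed TPM was 3472 in soma and 1820.4 in neurites of CAD wild-type cells. It was 2923 and 2175 in N2A, and 4839 and 3856 with the WT transgene. The fractions did not overlap in CAD or with the WT transgene. In N2A they did, at 2672, 2828 and 3268 in soma and 1481, 2673 and 2369 in neurites. Mrpl18, with the highest LR in N2A, had a mean of 21.4 TPM in soma and 19.1 in neurites there, and its fractions overlapped on this scale. Measured against the median of all genes in counts, the members stood 0.68 above it in CAD, 1.15 in N2A and 0.45 in the transgene cells under those totals, and 0.69, 1.15 and 0.45 with the TMM factors. Transcripts of mitochondrial DNA took 17.8% of counts in CAD wild-type neurites and 5.13% in soma, and 5.57% and 5.27% in N2A, and their part in the shift was not tested. In the transgene experiment, the count of 50 fell to 24 higher and 0 lower by edgeR without replicate 1 (against 7.67% and 4.88% of all genes) and to the same without replicate 2 (7.45% and 5.09%).

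Members with an Mrpl symbol had a median LR of 0.72 in CAD, 1.22 in N2A and 0.45 with the WT transgene, and those with an Mrps symbol 0.60, 1.03 and 0.41. Members with a bacterial counterpart (0.68, 1.13 and 0.46) and those specific to mitochondria (0.64, 1.18 and 0.43) had similar medians. By place in the ribosome, the 3 proteins of the L7/L12 stalk, which recruits translation factors, had medians of 0.90, 1.32 and 0.60, and the 5 of the central protuberance 0.83, 1.28 and 0.43. The exit tunnel (6 proteins) stood at 0.63, 1.12 and 0.47, the peptidyl transferase region (4 proteins) at 0.54, 1.09 and 0.33, and Mrps12, of the decoding site, at 0.63, 1.03 and 0.36. The differences between these groups were not tested, and library totals alone lower all of them by the shift given above.

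Across members the LR ran from 0.19 to 1.33 in CAD wild-type cells. The highest was Mrpl54, a protein specific to mitochondria, at 15.3, 13.7 and 18.5 CPM in soma and 37.2, 40.6 and 41.3 in neurites. All neurite libraries lay above all soma libraries, and the LR was 1.33 (SE 0.11, adjusted p = 8.0e-08). Mrpl30 (1.32), Mrpl52 (1.26), Mrps21 (1.17) and Mrpl35 (1.06) came next. At the other end, Mrps9, a protein of the small subunit's head, stood at 25.7, 26.3 and 24.5 CPM in soma and 30.0, 27.7 and 29.4 in neurites. All its neurite libraries were above all its soma libraries, by a small margin, and its LR of 0.19 (SE 0.07, adjusted p = 0.045) was not called. Mrps35 (0.32) was not called either, while Mrps2 (0.31), Mrpl37 (0.32) and Mrps5 (0.35) were. With library totals alone all 5 were called lower in neurites, Mrps9 at -0.49, Mrps35 at -0.36, Mrps2 at -0.36, Mrpl37 at -0.35 and Mrps5 at -0.32. The calls of Mrps2 and Mrpl37 were lost without replicate 1 (0.21 and 0.18) and without replicate 2 (0.32 and 0.33), that of Mrps2 also without replicate 3 (0.40), and that of Mrps5 without replicate 1 (0.27) or 2 (0.39).

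In N2A wild-type cells Mrpl18, a protein of the central protuberance, was highest, at 11.0, 11.1 and 13.1 CPM in soma and 39.7, 36.9 and 32.4 in neurites. The fractions did not overlap, with an LR of 1.63 (SE 0.11, adjusted p = 1.0e-08), and Mrpl53 (1.59), Mrpl12 (1.57), Mrps18c (1.56) and Mrps28 (1.56) followed. The lowest was Mrpl23, at 8.35, 6.65 and 7.37 CPM in soma and 5.62, 6.54 and 7.15 in neurites. Its fractions overlapped and its LR of -0.21 (SE 0.14, adjusted p = 0.19) was not called. It became 0.35 with length-scaled counts, and was called lower with upper-quartile scaling (-0.51) and with library totals alone (-0.55). Above it came Mrpl44 (0.38), Mrps35 (0.39), Mrps10 (0.47) and Mrpl33 (0.53), all called higher in neurites but not with library totals alone (0.04, 0.05, 0.13 and 0.18). Without replicate 2, the calls of Mrpl44 (0.35), Mrps35 (0.31) and Mrpl33 (0.48) were lost, as was that of Mrpl44 without replicate 1 (0.35) and that of Mrps35 without replicate 3 (0.36). Across the 78 members the LR of CAD and N2A wild-type cells had a Pearson's r of 0.51, and that of the CAD cells of the 2 experiments 0.81. Members are not independent replicates, and these are descriptions with no test.

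In cells with the WT transgene, Mrpl30 had the highest LR, at 66.8, 69.8 and 74.3 CPM in soma and 185, 241 and 169.7 in neurites. The fractions did not overlap, with an LR of 1.50 (SE 0.11, adjusted p = 2.3e-08), and Mrpl35 (1.07), Mrpl52 (1.04), Mrpl33 (1.01) and Mrpl48 (1.01) came next. The lowest were Mrpl44 (-0.22), Mrps22 (-0.06), Mrps18b (0.04), Mrps2 (0.07) and Mrps9 (0.09), and none of these 5 was called by edgeR with TMM factors. With library totals alone all 5 were called lower, at -0.75, -0.58, -0.49, -0.45 and -0.43 in that order. The sign of Mrpl44 held when any 1 replicate was left out, and those of the other 4 did not. Without replicate 3, Mrps22 stood at 0.12 and Mrps18b at -0.01, and without replicate 1 Mrps9 stood at -0.01. Mrps2 stood at -0.00 without replicate 3.

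Other lists of translation and mitochondrial genes are given beside the members, and their differences from the members were not tested. In CAD wild-type cells the median LR was 1.58 for 79 cytosolic ribosomal protein genes (78 called higher), 1.14 for 80 nuclear-encoded respiratory chain genes (79 higher), 0.64 for 5 mitoribosome proteins with other symbols such as Dap3 and Aurkaip1 (5 higher), 0.36 for 27 assembly and RNA factors (17 higher, 2 lower), 0.30 for 15 translation factors (8 higher) and 0.16 for 17 mitochondrial aminoacyl-tRNA synthetases (5 higher). Of all genes tested in CAD, 23.7% were called higher and 17.7% lower. In N2A the medians of these lists were 1.39, 1.26, 1.21, 0.76, 0.56 and 0.05, and with the WT transgene 1.78, 0.82, 0.29, 0.15, 0.11 and -0.01. Library totals alone lower all of them by the shift given above. That shift is larger than the CAD medians of 0.64, 0.36, 0.30 and 0.16. It is also larger than 0.05 in N2A and 0.29, 0.15 and 0.11 with the WT transgene. The sign of these medians therefore rests on the scale factors. Tufm, the factor that brings aminoacyl-tRNA to the mitochondrial ribosome, had an LR of 0.30 (SE 0.06, adjusted p = 8.1e-04) in CAD and 0.55 (SE 0.10, adjusted p = 1.5e-04) in N2A. Its CAD value, too, is smaller than the shift under library totals alone, so its sign there rests on the scale factors. Among the synthetases, Lars2 stood far from the rest with 2.59 in CAD and 3.59 in N2A. The 15 RNAs of mitochondrial DNA had a median of 2.40 in CAD (15 called higher), 0.42 in N2A and 1.71 with the WT transgene (14 higher). In N2A, 0 of the 15 were called by edgeR, against 32.5% of all genes tested called higher and 26.6% lower. With the WT transgene those shares were 14.9% and 12.6%.

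**Figure D1:**
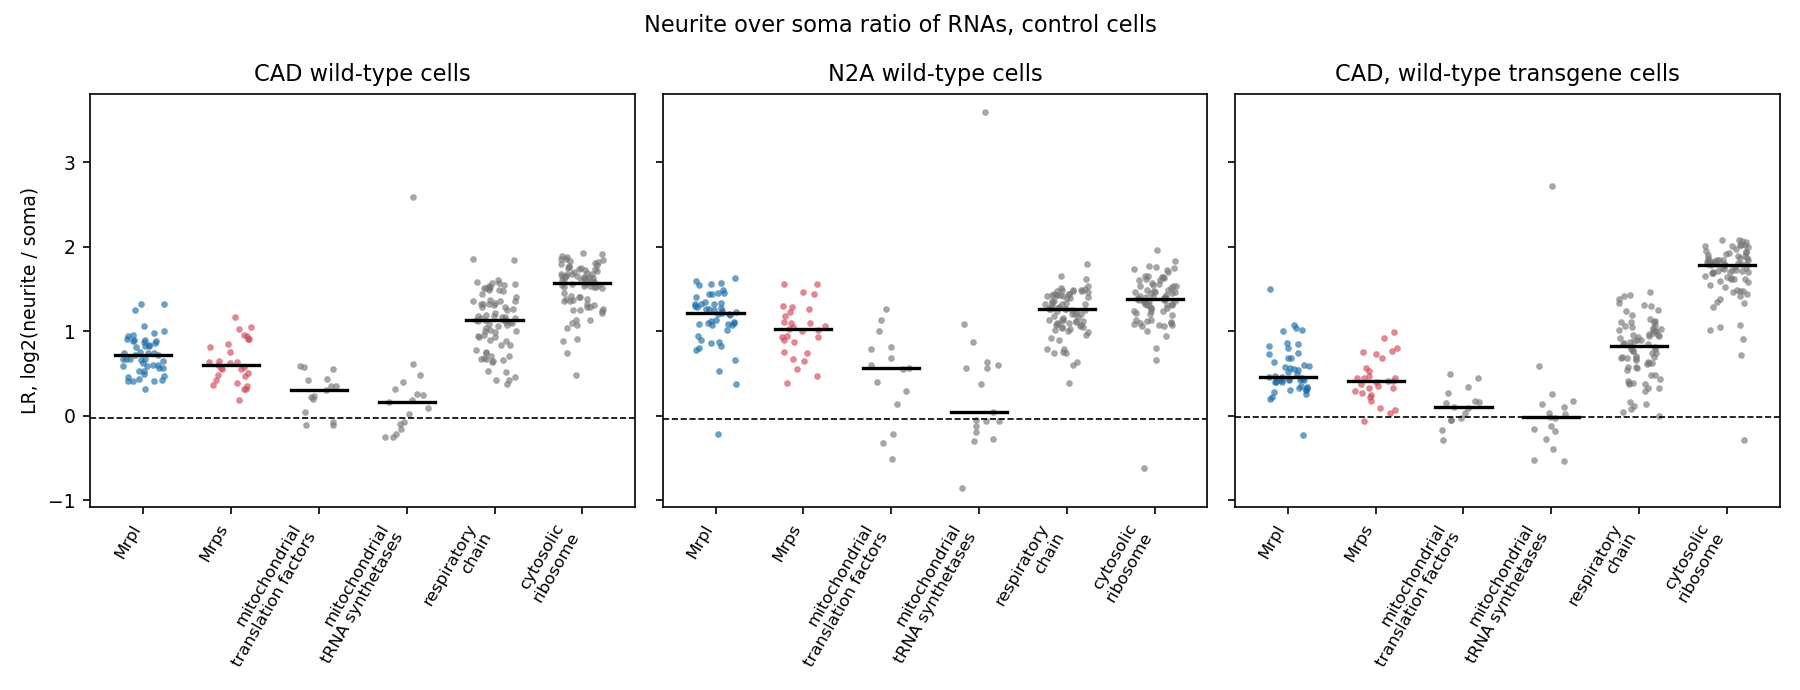
LR (log2 of neurite over soma, vertical axis) of single genes in control cells of the 3 experiments, by list, with bars at list medians and a dashed line at the median of all genes. Medians of the members (blue and red points, 0.72 and 0.60 in CAD and 1.22 and 1.03 in N2A) lie above that line and below those of the cytosolic ribosomal proteins (1.58 in CAD and 1.39 in N2A).

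Knockout in CAD cells left most members near their wild-type level, and the members called moved both ways. In soma, 5 members rose and 4 fell, against 11.2% of all genes tested called higher and 11.6% lower, and in neurites 8 rose and 3 fell, against 11.8% and 13.5%. The median log2 difference was -0.04 in both fractions beside 0.00 for all genes, and the neurite median became 0.06 with library totals alone, which moved the median of all genes by 0.11. Counts and medians turned on the replicates used. In soma, 1 was called higher and 1 lower without replicate 2 (against 5.15% and 5.17% of all genes), and 3 higher and 2 lower without replicate 3 (7.84% and 6.37%), with medians of -0.10 and 0.02. In neurites, 2 were called higher and 4 lower without replicate 1 (8.99% and 10.1%), and 1 higher and 2 lower without replicate 2 (5.45% and 6.30%), and the median was -0.10 without replicate 1 and 0.03 without replicate 3. Sums over the 4 nuclear RNA markers (Malat1 the most abundant) were 384, 200 and 123 TPM in wild-type soma and 517, 181 and 226 TPM in knockout soma, and their part in the soma results was not tested.

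Among the large-subunit members, Mrpl41, which is specific to mitochondria, fell most. It stood at 6.11, 6.75 and 6.56 CPM in wild-type and 3.13, 3.60 and 3.45 in knockout soma, and at 10.2, 11.3 and 10.9 and 6.67, 6.36 and 6.19 CPM in neurites. Each knockout library lay below each wild-type library of its fraction, with log2 differences of -0.93 (SE 0.10, adjusted p = 2.1e-06) in soma and -0.75 (SE 0.10, adjusted p = 1.3e-05) in neurites. Mrpl4, whose bacterial counterpart lines the exit tunnel, stood at 13.3, 13.7 and 15.5 CPM in wild-type and 9.66, 8.67 and 9.80 in knockout soma, without overlap. Its differences were -0.59 (SE 0.09, adjusted p = 1.4e-04) in soma and -0.53 (SE 0.10, adjusted p = 3.7e-04) in neurites, and both calls were lost without replicate 2 (-0.57 and -0.56). Mrpl55 fell by 0.51 and 0.66 on the log2 scale in soma and neurites, from 5.98, 5.63 and 6.47 to 4.40, 3.85 and 4.41 CPM in soma, again without overlap. Its soma call was lost without any 1 of the 3 replicates (-0.54, -0.50 and -0.49) and its neurite call without replicate 3 (-0.52).

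Further members were called in CAD knockout cells, and Mrps35 is given further on. Mrpl49, a large-subunit protein specific to mitochondria, went from 24.7, 26.3 and 24.2 to 35.0, 34.6 and 29.9 CPM in neurites, a difference of 0.40 (SE 0.07, adjusted p = 4.9e-04). All knockout libraries were higher, but without replicate 1 (0.36) or replicate 2 (0.41) it was not called. Mrpl47, of the exit tunnel, and Mrpl1, of the stalk at the tRNA exit, rose in neurites (0.38 and 0.36) and were not called in soma (0.21 and 0.06), and both neurite calls were lost without replicate 1 (0.36 and 0.26) or replicate 2 (0.31 and 0.30). In the small subunit, Mrps9 (0.35 in soma, 0.36 in neurites) and Mrps10 (0.33 and 0.34), both proteins of its head, rose in both fractions. For Mrps10, soma went from 35.7, 34.2 and 34.5 to 43.5, 45.0 and 43.1 CPM and neurites from 50.0, 50.8 and 52.7 to 66.0, 65.4 and 62.8 CPM. The groups did not overlap in either fraction. All 4 calls were lost without replicate 2, with values of 0.35 and 0.35 for Mrps9 and 0.30 and 0.33 for Mrps10, and those of Mrps9 also without replicate 3 in soma (0.33) and replicate 1 in neurites (0.31). Mrps17, a small-subunit protein of bacterial descent, fell by 0.36 on the log2 scale in soma, and that call was lost without any 1 replicate (-0.31, -0.42 and -0.35). Mrps18b, 1 of 3 forms of its protein, rose in neurites (0.26), a call lost without any 1 replicate (0.22, 0.28 and 0.29), and was not called in soma (-0.04). For Mrpl47, Mrpl1 and Mrps18b, the difference between the fractions was not called, with LR changes of 0.18, 0.30 and 0.30.

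In N2A knockout soma, the members that were called all rose. The count was 16 higher and 0 lower by edgeR, against 10.9% and 5.15% of all genes tested, with 72 of 78 members above 0 and a median of 0.28 beside -0.02 for all genes. By replicate number of the knockout libraries, each against the mean of the wild-type libraries, the members' medians were 0.095, 0.30 and 0.38. These values hold no spread between wild-type libraries. At an unadjusted p under 0.05, 50 members were higher and 0 lower, against 24% and 17.9% of all genes, and by DESeq2 32 were higher and 0 lower, against 16.3% and 6.06%. The median was above 0 under each scaling tried, at 0.17 with upper-quartile factors, which moved all genes by -0.10, and 0.19 with library totals alone, but the count fell to 8 (against 8.01% of all genes higher and 8.33% lower) and to 9 (7.99% and 6.67%), with 0 members lower by edgeR in both. With no filter on low counts it was 27, against 7.14% of all genes higher and 3.73% lower. The number called varied with the libraries used: 15 without replicate 1 (against 9.30% of all genes higher and 4.77% lower), 2 without replicate 2 (Mrpl18 and Mrps35, against 2.22% and 0.555%) and 9 without replicate 3 (6.62% and 2.05%). Sums over the 4 nuclear RNA markers were 656, 308 and 217 TPM in wild-type soma and 482, 146 and 101 TPM in knockout soma, and their part in the result was not tested. In neurites, 1 member rose and 2 fell, against 6.48% and 5.10% of all genes, with a median of -0.05 beside -0.01, and only 1 was called, higher, without replicate 2 (against 1.81% of all genes higher and 0.565% lower) or without replicate 3 (3.59% and 2.14%). The neurite count grew with library totals alone, to 1 higher and 5 lower (against 5.38% and 8.15%), and with at least 10 counts in each library, to 3 higher and 2 lower (11.1% and 7.54%).

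Of the 16, 11 belong to the large subunit and 5 to the small subunit, and 8 each have a bacterial counterpart or are specific to mitochondria. Mrpl18, of the central protuberance, stood at 11.0, 11.1 and 13.1 CPM in wild-type and 19.9, 21.5 and 22.0 in knockout soma, and at 39.7, 36.9 and 32.4 and 45.9, 38.7 and 36.5 CPM in neurites. The groups did not overlap in soma and did in neurites, with differences of 0.85 (SE 0.11, adjusted p = 5.0e-05) and 0.15 (SE 0.10, adjusted p = 0.35). Mrpl12, of the L7/L12 stalk, went from 35.2, 32.3 and 37.8 to 46.6, 54.1 and 62.5 CPM in soma, a difference of 0.63 (SE 0.10, adjusted p = 4.0e-04). Every knockout library was higher, and without replicate 2 it was not called (0.67, adjusted p = 0.041). Mrpl53 (0.48) and Mrpl35 (0.46) rose as well, and both calls were lost without replicate 2 (0.43 and 0.45), that of Mrpl53 without replicate 3 (0.58), and that of Mrpl35 without replicate 1 (0.44) and with upper-quartile factors (0.36), library totals alone (0.38) or length-scaled counts (0.47). In neurites, Mrpl48, of the central protuberance, went from 23.9, 22.4 and 21.5 to 17.8, 16.3 and 15.1 CPM, a difference of -0.46 (SE 0.09, adjusted p = 0.0023), and Mrpl54 from 34.3, 34.5 and 30.9 to 26.0, 24.9 and 22.8 CPM, a difference of -0.44 (SE 0.08, adjusted p = 0.0017). All knockout libraries of both genes were lower, and both calls were lost without replicate 2 (-0.44 and -0.39) or replicate 3 (-0.41 and -0.40).

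**Figure D2:**
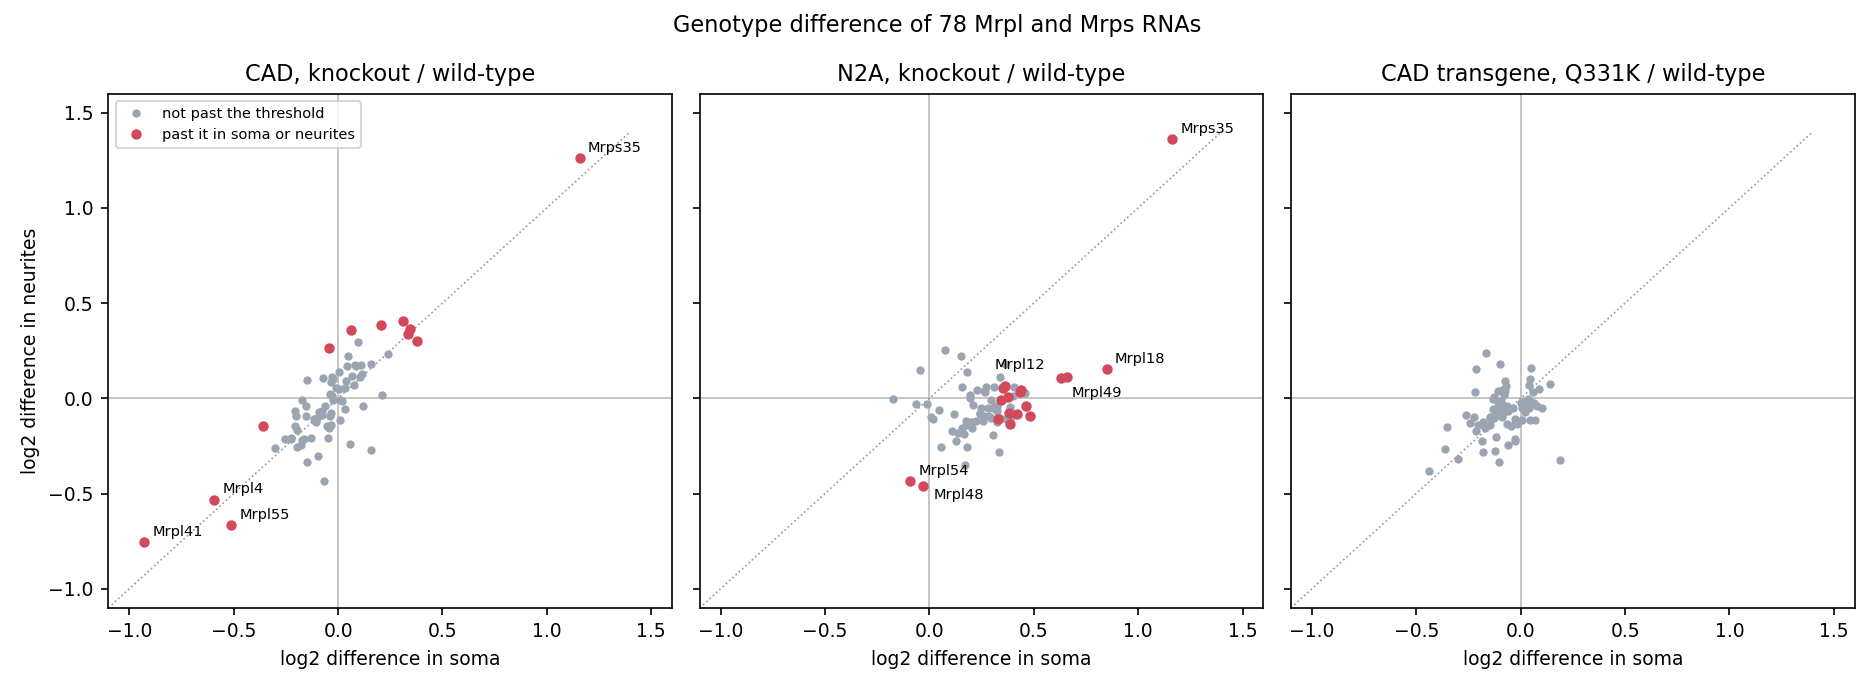
Log2 difference between genotypes in soma (horizontal axis) and in neurites (vertical axis) for the 78 members, 1 point per gene, with red for an adjusted p under 0.01 in either fraction. In CAD the points follow the diagonal, in N2A most lie right of 0 with a soma median of 0.28 and a neurite median of -0.05, and no point is red in the transgene panel.

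Mrps35, a small-subunit protein specific to mitochondria, was the member called in the same direction in both fractions of both lines. In CAD soma it stood at 10.8, 9.21 and 8.42 CPM in wild-type and 22.0, 22.4 and 19.1 in knockout cells, and in CAD neurites at 11.9, 12.3 and 11.4 and 28.5, 28.7 and 27.9 CPM. In N2A soma it stood at 14.2, 11.2 and 10.7 and 27.1, 26.6 and 27.1 CPM, and in neurites at 15.6, 16.6 and 15.1 and 45.3, 39.4 and 36.7 CPM. All 12 knockout libraries lay above all 12 wild-type libraries of the 2 lines. The differences were 1.16 (SE 0.09, adjusted p = 1.1e-07) in CAD soma, 1.26 (SE 0.09, adjusted p = 4.8e-08) in CAD neurites, 1.16 (SE 0.11, adjusted p = 2.3e-06) in N2A soma and 1.36 (SE 0.11, adjusted p = 4.3e-07) in N2A neurites. With the WT or the Q331K transgene, Mrps35 ran from 12.7 to 14.5 CPM in soma and 16.7 to 20.7 in neurites.

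Besides Mrps35, Mrps27 and Mrpl49 rose in soma of both lines, and Mrpl41 moved in opposite directions. Mrps27, a small-subunit protein with pentatricopeptide repeats, went from 23.3, 21.4 and 23.9 to 29.0, 30.3 and 29.8 CPM in CAD soma and from 17.5, 17.8 and 19.0 to 21.4, 24.1 and 24.3 CPM in N2A soma. The groups did not overlap, with differences of 0.38 (SE 0.07, adjusted p = 3.8e-04) and 0.36 (SE 0.08, adjusted p = 0.0045). Without replicate 2 neither was called (0.31 and 0.41), nor was N2A without replicate 3 (0.43) or with library totals alone (0.28). In CAD neurites Mrps27 rose by 0.30, a call lost without any 1 replicate (0.28, 0.30 and 0.33). Mrpl49 went from 17.1, 16.7 and 16.9 to 20.9, 21.8 and 20.2 CPM in CAD soma and from 11.8, 11.9 and 12.6 to 16.6, 20.1 and 20.6 CPM in N2A soma. Each knockout library was above each wild-type library of its line, with differences of 0.31 (SE 0.08, adjusted p = 0.0043) and 0.66 (SE 0.11, adjusted p = 4.3e-04). The CAD call was lost without any 1 of the 3 replicates (0.33, 0.27 and 0.34) and with library totals alone (0.30), and the N2A call without replicate 2 (0.70). Mrpl49 overlaps Syvn1 on the other strand. Among the other members called in knockout cells and named here, Mrpl12, Mrpl18, Mrpl47, Mrpl48, Mrpl53, Mrps9, Mrps18b and Mrps27 also overlap a gene there, and since the files do not state whether strand was used, reads of such pairs may be shared.

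Mrpl41 went from 7.13, 7.50 and 8.05 to 9.75, 11.0 and 10.1 CPM in N2A soma, without overlap, a rise of 0.44 (SE 0.09, adjusted p = 0.0031) that was not called without replicate 1 (0.43) or replicate 2 (0.47), and it fell in CAD. In an edgeR model of the 24 libraries of both lines, its soma effect in CAD minus that in N2A was -1.44 (adjusted p = 6.6e-08), while the effects of Mrps35 (-0.08, adjusted p = 0.71) and Mrps27 (-0.06, adjusted p = 0.72) in soma were not called different. That model called 16 members different in soma (10.5% of 19700 genes) and 2 in neurites (9.18%), all with the lower value in CAD. The LR of wild-type cells differed for 32 members (18.4% of genes), lower in CAD for 31 and higher for Mrpl23 (0.80), that of knockout cells for 1 (1.12%), and the change in LR for 0 by edgeR (0.203%). A DESeq2 version of this model was not run.

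**Figure D3:**
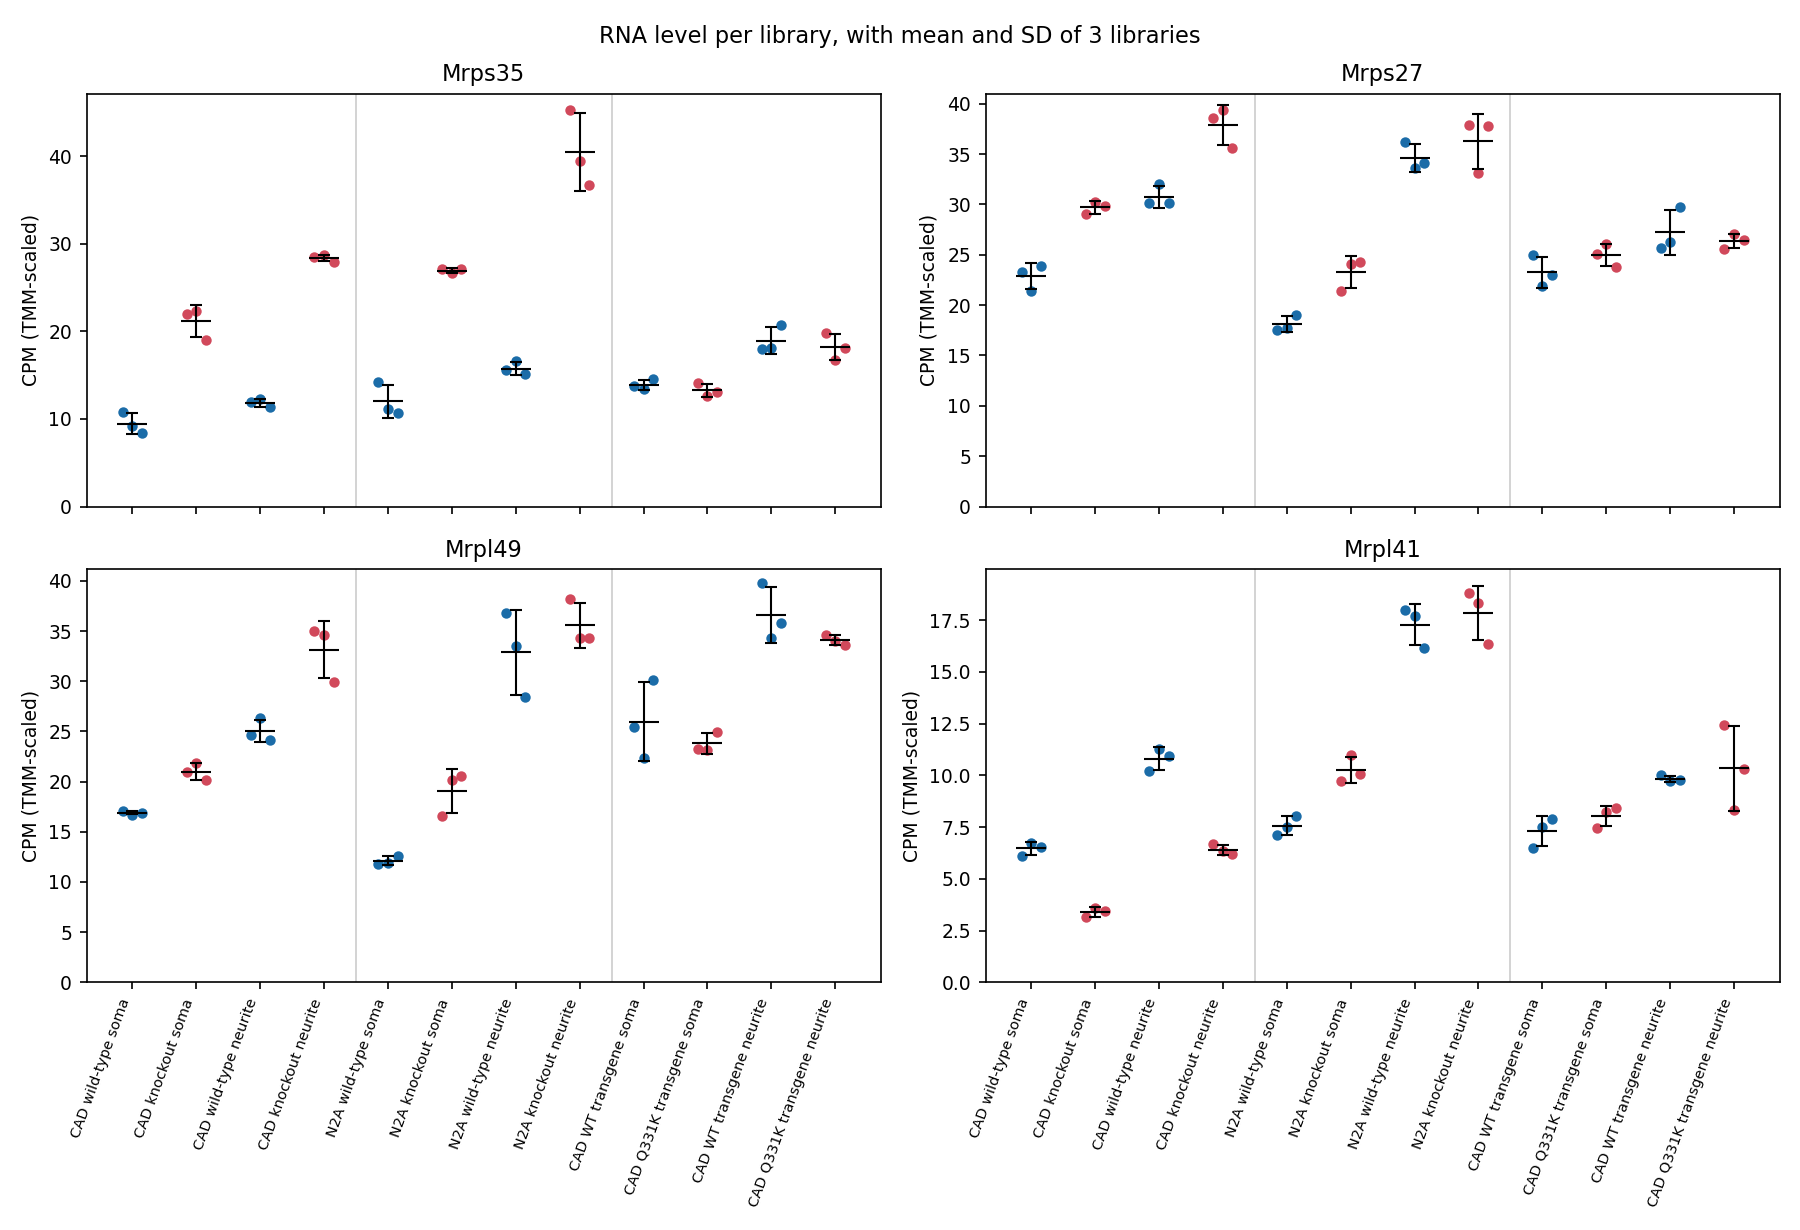
CPM scaled by TMM (vertical axis) of Mrps35, Mrps27, Mrpl49 and Mrpl41 in each library of the 12 groups, with mean and SD of 3 libraries, blue for control cells and red for knockout or Q331K cells. Mrps35 is higher in every knockout group (1.16 in soma of both lines on the log2 scale), and Mrpl41 is lower in CAD knockout soma (-0.93) and higher in N2A knockout soma (0.44).

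In knockout cells, too, members were called higher in neurites with the TMM factors. In CAD knockout cells 75 were called higher in neurites and 0 lower (edgeR; 0 lower at an unadjusted p under 0.05 and by DESeq2), against 24.6% and 19.0% of all genes, with a median LR of 0.69, or 0.13 with library totals alone, which moved all genes by -0.56 and left 19 called higher and 2 lower, against 4.46% and 47.1% of all genes. In N2A knockout cells 77 were higher and 0 lower (0 lower at an unadjusted p under 0.05 and by DESeq2), against 25.3% and 13.1%, with a median of 0.79, or 0.49 with library totals alone, which moved all genes by -0.30 and left 67 higher and 0 lower by edgeR, against 13.6% and 24%. The change in LR, knockout minus wild-type, had a median of 0.02 in CAD, with 48 members above 0 and 30 below (0.13 with library totals alone, which moved all genes by 0.12), and of -0.34 in N2A, with 6 above and 72 below, beside -0.01 in both lines for all genes. The CAD split turned without replicate 1, with 30 members above 0 and a median of -0.03. By replicate number of the knockout libraries, against the mean LR of wild-type cells, the CAD medians were 0.14, -0.01 and -0.07. The N2A median became -0.22 with upper-quartile factors, which moved all genes by 0.12. In CAD 0 members were called by edgeR, against 0.432% of all genes, with 3 at an unadjusted p under 0.05 (10.5% of all genes) and 0 by DESeq2 (1.29% of all genes). In N2A 0 were called by edgeR, against 0.100%, with 50 lower and 0 higher at an unadjusted p under 0.05 (19.6% and 11.5% of all genes) and 15 lower and 0 higher by DESeq2 (8.74% and 1.92%). At an adjusted p of 0.05, edgeR called 14 lower and 0 higher in N2A, against 5.33% and 3.13% of all genes, and with no filter on low counts 5 lower and 0 higher, against 1.29% and 1.37%.

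The change in LR is the neurite difference minus the soma difference, so a gene picked for a rise in soma tends to have a lower LR in knockout cells by construction. Among the members in N2A, Mrpl18 had the smallest adjusted p, with a change of -0.70 (SE 0.15, adjusted p = 0.030) and an LR that went from 1.63 in wild-type to 0.93 in knockout cells. For Mrpl12 it went from 1.57 to 1.04, and for Mrpl49 from 1.44 to 0.89. Neurite levels of these 3 genes moved by 0.15, 0.11 and 0.11, none of them called. By replicate number of the knockout libraries, against the mean LR of wild-type cells, the members' median change was -0.11, -0.40 and -0.49. Mrps35, with rises of similar size in both fractions, had LR changes of 0.10 (SE 0.13, adjusted p = 0.86) in CAD and 0.20 (SE 0.15, adjusted p = 0.38) in N2A, which were not called.

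Counts of the other lists in the soma comparisons are given beside the shares of all genes, and no list was tested. In N2A knockout soma, where 10.9% of all genes were called higher and 5.15% lower, 36 of 80 cytosolic ribosomal protein genes rose (median 0.37), as did 33 of 80 respiratory chain genes with 1 that fell (0.33), 3 of 15 translation factors (0.21), 4 of 27 assembly factors with 1 that fell (0.22), 1 of 17 synthetases (0.03) and 1 of 5 mitoribosome proteins with other symbols (0.27), which was Chchd1. Their median changes in N2A LR were -0.36 for cytosolic ribosomal proteins, -0.37 for respiratory chain genes and -0.17, -0.16, -0.08 and -0.30 for the last 4 lists, where edgeR called 0 genes, as it did in the members. In CAD knockout soma, where 11.2% and 11.6% were called, 3 cytosolic ribosomal protein genes rose and 0 fell (median 0.17), and 6 respiratory chain genes rose and 3 fell (0.11). Of the elongation factors, Gfm1 rose in CAD soma (0.45) and in N2A soma (0.28), and Lrpprc, which binds mitochondrial mRNAs, rose by 0.48 and 0.40. RNAs of mitochondrial DNA had median differences of 0.19 in CAD soma (0 of 15 called by edgeR) and 0.48 in N2A soma (1 higher), and of -0.30 (4 lower) and 0.90 (5 higher) in the neurites. Of all genes tested in neurites, 11.8% were called higher and 13.5% lower in CAD, and 6.48% and 5.10% in N2A.

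With the Q331K transgene in place of the WT transgene, no member was called in any comparison of genotype. In soma, 0 members were called by edgeR (0% of all genes) and 0 by DESeq2 (0%), with 5 lower and 0 higher at an unadjusted p under 0.05 (3.56% and 3.58% of all genes). In neurites it was 0 by edgeR (0%) and 0 by DESeq2 (0.100%), with 6 lower and 0 higher at an unadjusted p under 0.05 (4.90% and 4.94%). Medians were -0.08 and -0.06 beside 0.00 and -0.01 for all genes, with 55 and 61 of 78 members below 0. Mrpl52, a large-subunit protein specific to mitochondria, had the smallest adjusted p in both fractions, at 11.2, 11.7 and 12.8 CPM with the WT and 8.43, 8.63 and 9.23 with the Q331K transgene in soma, and at 22.5, 27.2 and 23.6 and 20.1, 18.3 and 17.9 in neurites. The differences of -0.44 (SE 0.11, adjusted p = 0.32) and -0.38 (SE 0.11, adjusted p = 0.29) were not called by edgeR. Its groups did not overlap, which adds no support, since Mrpl52 was picked for its adjusted p. The LR with the Q331K transgene had 52 members called higher and 0 lower (edgeR; 0 lower at an unadjusted p under 0.05 and by DESeq2), against 16.7% and 14.5% of all genes, with a median of 0.46. Library totals alone turned that median to -0.09, moved all genes by -0.55 and left 8 members called higher and 10 lower, against 3.81% and 51.5% of all genes. Without replicate 1 the count was 24 higher and 0 lower by edgeR, against 7.94% and 6.80%. The change in LR had a median of 0.01. By replicate number of the Q331K libraries, against the mean LR with the WT transgene, it was 0.16, -0.03 and -0.08. For this change 0 members were called by edgeR (0%) or DESeq2 (0%). At an unadjusted p under 0.05, 1 was higher and 0 lower (1.36% and 2.98% of all genes).

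By the median, members are shorter than protein-coding genes as a whole, though some, such as Mrps35 at 4162 bases, are longer than the median gene. Their annotated transcripts had a median length of 1208 bases, with 571.5 in the coding sequence and 311.5 in the 3′ UTR, against 2782, 1254 and 919 over 17139 protein-coding genes. The motif GUGUG, of the kind TDP-43 binds, occurred in the 3′ UTR of 38 of 78 members (48.7%), against 64.8% of all. These shares were not adjusted for the shorter 3′ UTR of the members. Across the 78 members the LR of wild-type cells ran against coding length, with Spearman's rho of -0.63 in CAD, -0.28 in N2A and -0.55 with the WT transgene. With the whole transcript, rho was -0.50, -0.14 and -0.31. The 39 shorter transcripts had a median LR of 0.74 in CAD, 1.14 in N2A and 0.48 with the WT transgene, and the 39 longer ones 0.56, 1.11 and 0.42. Members with GUGUG had a median N2A LR change of -0.35 and those without it -0.34. Members lie on 17 chromosomes, 11 of them on chromosome 11, and 36 overlap a gene on the other strand, such as Mrpl46 and Mrps11, which overlap each other. These are descriptions with no test.

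Promoters of the members were searched as a description of their sequences. RefSeq promoter windows (GRCm38.p6, 250 bases before to 50 after the start) matched 69 of 78 members. Both strands were searched for motifs of factors known to act on nuclear genes of mitochondria: NRF1 (GCGCANGCG) was in 16 of 69 (23.2%, against 7.03% of 27025 promoters), ETS factors (CCGGAAG) in 26 (37.7% against 9.93%) and YY1 (AAGATGGCG) in 8 (11.6% against 1.64%). At least 1 of them was in 42 members (60.9% against 16.5%), and in 7 of the 14 N2A soma risers with a window, and no link between motif and rise was tested. The 27025 promoters were not limited to genes expressed in these cells, while all members were. The search found none in windows of other members, which says only that these letters are not there. No window was found for Mrpl4, Mrpl13, Mrpl15, Mrpl19, Mrpl38, Mrpl54, Mrps28, Mrps34 and Mrps35. The sites of 3 members that rose are shown, with the motif in capitals and 10 bases on either side: Mrps27, which rose in soma of both lines (ETS at chr13:99344728-99344754 and YY1 at chr13:99344790-99344818, plus strand), and Mrpl18 (ETS at chr17:12916315-12916341, minus strand) and Mrpl12 (NRF1 at chr11:120484547-120484575, plus strand), which had large rises in N2A soma. Each is read 5′ to 3′ on the gene's strand.
Mrps27: ggtaggaccaCTTCCGGcggaggcggg
Mrps27: ggtgcgctccAAGATGGCGgctcccatgg
Mrpl18: actgaaaacgCCGGAAGtagggggctg
Mrpl12: attgtctccgCGCCTGCGCgtcgcaccgc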

How the data were processed

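The members, the other lists and the places in the ribosome were chosen with earlier results of these data known. The input was 36 mouse quantification files. The authors deposited in them an estimated count per transcript, made by salmon from the reads before the files were deposited, and it was read as it stands. The authors also deposited TPM, which salmon made from the estimated counts and lengths before the files were deposited. The effective length deposited by the authors was used for length-scaled counts alone. Transcripts were summed to genes with GENCODE vM21 (GRCm38), while the study names Gencode version 17. Counts were rounded and tested per experiment with edgeR 4.0.16 in R 4.3.3 (quasi-likelihood F test on 4 group means, filterByExpr, TMM factors, Benjamini-Hochberg over all genes tested, adjusted p under 0.01), with limma 3.58.1 loaded by it. CPM use TMM-scaled totals. DESeq2 1.42.0 served as the alternative, and Python 3.11.15 with numpy 2.4.6, pandas 2.3.3, scipy 1.17.1 and matplotlib 3.10.9 made tables and figures. The code was tested on simulated data.

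The study used tximport, DESeq2 and xtail, and xtail was not run here. Alternatives tried were an adjusted p of 0.05, DESeq2, upper-quartile factors, library totals alone, no filter, a filter of 10 counts in each library, length-scaled counts, a replicate block, for LR and its change also a block per culture (genotype and number), and leaving out each replicate. The labels do not say what a replicate number marks, and the tests used no block.

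Named members are the 5 highest and 5 lowest in LR of control cells per experiment, up to 6 rises and 6 falls with the largest values among those called in each genotype comparison, those called in the same direction in both lines, and the 5 highest and 3 lowest in TPM in CAD wild-type soma. These came to 35 members, and a few more are given as examples. Members named for a call or a rank were picked by these same values, so a lack of overlap between their libraries adds no support. Files of human cells, of reporter libraries, of binding to RNA in vitro and of RNA decay were not used. No protein sequences were provided.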

Additional observations from a re-analysis of the deposited data

Results flagged for a closer look

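These values are listed because the effect or ratio differed between CAD and N2A cells by an edgeR test of the difference in 1 model of the 24 libraries of both lines (adjusted p under 0.01). Each is the log2 value in CAD minus that in N2A. The reason for the differences was not tested.

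Knockout effect in soma: Mrpl41 -1.44, Mrpl55 -0.95, Mrpl4 -0.87, Mrpl18 -0.82, Mrpl12 -0.79, Mrpl53 -0.72, Mrps7 -0.70, Mrpl36 -0.67, Mrpl43 -0.66, Mrps17 -0.59, Mrpl2 -0.58, Mrps6 -0.56, Mrpl20 -0.52, Mrpl3 -0.49, Mrpl16 -0.48 and Mrps31 -0.47.

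Knockout effect in neurites: Mrpl55 -0.90 and Mrpl41 -0.85.

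LR of wild-type cells: 32 members differed, which are Mrpl16 -1.08, Mrpl22 -0.88, Mrpl49 -0.87, Mrps6 -0.81, Mrpl18 -0.76, Mrpl50 -0.76, Mrps7 -0.75, Mrpl21 -0.72, Mrpl32 -0.70, Mrpl43 -0.69, Mrpl45 -0.68, Mrpl39 -0.67, Mrpl3 -0.65, Mrpl9 -0.64, Mrpl46 -0.62, Mrpl12 -0.62, Mrps31 -0.62, Mrpl51 -0.59, Mrpl10 -0.58, Mrpl47 -0.57, Mrpl58 -0.57, Mrpl1 -0.56, Mrps5 -0.55, Mrps18c -0.54, Mrps27 -0.51, Mrps23 -0.49, Mrps9 -0.47, Mrps30 -0.47, Mrpl13 -0.45, Mrpl2 -0.44, Mrpl19 -0.42 and Mrpl23 0.80. LR of knockout cells: Mrps9 -0.51.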

How the results depend on the processing

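Of the counts of members called, 27 values moved by more than 1.5 times and 147 did not, and of the medians 14 moved by more than their spread over replicates and 145 did not. Of the values of named members, 514 were the same, 77 weaker, 13 reversed and 6 stronger.

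With library totals alone, members called were 15 for the CAD LR of wild-type cells (7 higher, 8 lower), 21 for knockout cells (19 and 2), 13 with the WT transgene (7 and 6), 18 with Q331K (8 and 10), 9 higher in N2A soma and 6 in N2A neurites (1 and 5). All genes called higher and lower were 3.84% and 57.3%, 4.46% and 47.1%, 3.81% and 50.4%, 3.81% and 51.5%, 7.99% and 6.67%, and 5.38% and 8.15% in that order. Medians became -0.00882 (CAD LR), 0.13 (CAD knockout LR), 0.78 (N2A LR), 0.49 (N2A knockout LR), -0.0834 (WT transgene LR), -0.0932 (Q331K LR), 0.0616 (CAD neurites) and 0.13 (CAD LR change).

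At an adjusted p of 0.05, edgeR called 40 higher in N2A soma (18.5% of all genes), 22 in CAD neurites (11 each way; 17.3% higher, 18.8% lower), 8 in N2A neurites (3 higher, 5 lower; 10.8% and 10.3%) and 14 lower in N2A LR change (5.33%). DESeq2 called 32 higher in N2A soma (16.3%) and 15 lower in N2A LR change (8.74%). Upper-quartile factors gave 8 higher in N2A soma (8.01%) and medians of 0.58 (CAD LR) and 0.82 (N2A LR). Without a filter, 27 were called higher in N2A soma (7.14%) and 5 lower in N2A LR change (1.29%). With at least 10 counts in each library, 5 were called in N2A neurites (3 higher, 2 lower; 11.1% and 7.54%) and medians were 0.56 (CAD LR) and 0.89 (N2A LR).

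Leaving out 1 replicate gave 24 to 49 (WT transgene LR; all genes higher 7.45% to 14.4%), 24 to 50 (Q331K LR; 7.94% to 15.4%), 2 to 6 (CAD soma; 5.15% to 8.89% higher, 5.17% to 8.99% lower), 3 to 9 (CAD neurites; 5.45% to 8.99% and 6.30% to 10.1%), 2 to 15 (N2A soma, all higher; 2.22% to 9.30%) and 1 to 3 (N2A neurites; 1.81% to 4.27% and 0.565% to 2.95%), and a CAD soma median of -0.10 to 0.0166.

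Signs reversed for the N2A LR of Mrpl23 with length-scaled counts (0.35) and, with library totals alone, for the CAD LR of Mrps9 (-0.49), Mrps2 (-0.36), Mrps35 (-0.36), Mrpl37 (-0.35) and Mrps5 (-0.32) and the WT transgene LR of Mrps18b (-0.49), Mrps2 (-0.45) and Mrps9 (-0.43). Leaving out replicates gave ranges across 0 for the WT transgene LR of Mrps18b (-0.0140 to 0.12), Mrps2 (-0.00106 to 0.14), Mrps22 (-0.16 to 0.12) and Mrps9 (-0.00923 to 0.18).

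With a replicate block, 77 members were called higher for the CAD LR (24.7% of all genes), 17 higher in N2A soma (12.2%), 48 higher for the WT transgene LR (15.5%) and 10 in CAD neurites (7 higher, 3 lower; 12.4% and 14.7%). Libraries of the same number in different groups had residuals with r above 0.1 in 6, 4 and 5 of 18 pairs (CAD, N2A and transgene), with values up to 0.42, 0.49 and 0.18, and 8, 8 and 7 of 12 libraries were closest to one of their own number. Not every pair was above 0.1, so the tests did not pair samples by number. Medians given by replicate number for the change in LR did pair neurite and soma libraries of the same number. The spread of LR medians over replicates used the same pairing, which the labels do not state. As a hint from the data, numbers may carry a shared effect, since the share of mitochondrial DNA counts was lowest in replicate 1 and highest in replicate 2 in all 8 groups of the CAD and N2A knockout experiments, and the cause was not tested. The transgene libraries were the least deep, and 3 libraries per group limit what small differences can be called.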
